A study of Drosophila melanogaster with 12 samples.

Results

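The genes described here make the DNA double-strand breaks of female meiosis and turn a share of them into crossovers. The list holds 10 genes chosen by symbol: *mei-W68*, *mei-P22*, *trem*, *vilya*, *narya*, *nenya*, *mei-218*, *rec*, *hdm* and *mei-9*. Symbols were matched to FlyBase identifiers, and 9 of the 10 were among the 17023 gene identifiers counted. The identifier of *vilya* (FBgn0283545) was not among them, so *vilya* was not analysed here. All 9 measured genes passed the filter on low counts, with 9745 genes tested in all.

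The flies (*Drosophila melanogaster*) were of 3 genotypes, and ovaries were taken 1 to 3 days post eclosion. NosGAL4 > UAS-*tkv* overexpresses a BMP receptor and enriches for germline stem cells (GSCs). UAS-Dicer2;NosGAL4 > *bam* RNAi reduces *bam*, a gene that GSC daughters need to differentiate, and enriches for undifferentiated GSC daughters (cystoblasts, CBs). UAS-Dicer2;NosGAL4 > *aramis* RNAi lowers *aramis* (*ais*), a helicase gene of ribosome biogenesis. By their labels, all 3 genotypes carry the germline driver NosGAL4 and both RNAi genotypes carry UAS-Dicer2, which is not listed for UAS-*tkv*. NosGAL4 acts in the germline only, whereas the whole ovary with its somatic cells was lysed. Each genotype gave 2 input libraries, from lysate set aside before the sucrose gradient, and 2 polysome libraries, from mRNA bound by several ribosomes. Extraction differed between the fractions (TRIzol for input, acid phenol-chloroform for polysomes), and a polysome to input ratio also holds this difference. Nothing says that replicates came from separate crosses, so p-values measure the spread between these libraries, which may be technical.

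In female flies, meiotic recombination starts in the germarium, after GSCs and CBs have divided into interconnected cysts and the synaptonemal complex has formed. Mei-W68, the Spo11 ortholog, cuts the DNA together with Mei-P22, and the zinc-finger protein Trem is needed for this step. The RING-finger proteins Vilya, Narya and Nenya link break formation to the choice of crossover sites. The mei-MCM proteins Mei-218 and Rec favour crossovers by opposing the Blm helicase, and Mei-9, an XPF-type endonuclease that binds Hdm, resolves the intermediates. The comparisons below ask whether mRNAs of this machinery, which acts in later cysts, differ in level or in polysome association between GSC-enriched, CB-enriched and *aramis*-depleted ovaries.

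Libraries held from 3131667 counts (*aramis* RNAi polysome replicate 2) to 15039925 counts (*bam* RNAi polysome replicate 2). As a check of the labels, *ais* stood at 34.2 and 29.5 CPM (counts scaled to library size by TMM) in UAS-*tkv* input, with *bam* RNAi at 28.7 and 20.7 CPM and *aramis* RNAi at 8.50 and 11.2 CPM. Its log2 difference in *aramis* RNAi was -1.69 ± 0.41 (SE) against UAS-*tkv* (edgeR adjusted p = 0.0163) and -1.33 ± 0.41 against *bam* RNAi (adjusted p = 0.0909). The *bam* gene was at 8.21 and 8.23 CPM in UAS-*tkv* input and at 3.55 and 2.48 CPM in *bam* RNAi input, a difference that was not called (-1.44 ± 1.00, adjusted p = 1), and it was lower still with *aramis* RNAi, at 0.59 and 0.70 CPM. *Dcr-2*, the gene of the UAS-Dicer2 transgene, went against the labels for *aramis* RNAi, at 199 and 213 CPM in input beside 332 and 356 CPM for UAS-*tkv* (-0.74 ± 0.38, adjusted p = 0.210), and the *bam* RNAi replicates stood at 694 and 287 CPM. Input of *tkv* was 246 and 271 CPM in UAS-*tkv*, 202 and 134 CPM with *bam* RNAi and 107 and 105 CPM with *aramis* RNAi. Of 8 germline markers 7 were measured, and their summed level in input was 997 to 1416 CPM in UAS-*tkv*, 951 to 1449 CPM in *bam* RNAi and 342 to 386 CPM in *aramis* RNAi. Sums of 6 hemocyte markers ran from 438 to 1013 CPM, from 1360 to 1476 CPM and from 4312 to 4639 CPM in the same order, and 6 muscle sheath markers from 6021 to 13518 CPM, from 12103 to 21716 CPM and from 37400 to 39482 CPM. Of 6 cyst and oocyte markers, *BicC* had 0 counts. The 6 summed to 348 to 521 CPM, 201 to 234 CPM and 243 to 280 CPM in the same order. Of the 5 tested, 2 were called lower and 2 higher in *aramis* RNAi input against UAS-*tkv* (18.9% of all genes called). Sums of 8 escort, cap and follicle cell markers were 914 to 1108 CPM, 1448 to 1858 CPM and 2189 to 2288 CPM. The germline marker *tud* was not lower with *aramis* RNAi (0.35 ± 0.48 in input against UAS-*tkv*). All 7 germline, 6 hemocyte and 6 muscle markers were detected in every input group. In whole ovaries, fewer cells of a type and less RNA per cell cannot be told apart. The fall of *ais* with *aramis* RNAi cannot be told apart from that of the germline markers, so it does not check the label. The level of *Dcr-2* there does not check the label either, as NosGAL4 drives the transgene in the germline. Polysome replicates of *bam* RNAi stood apart from each other, with 30.2% and 8.86% of counts in cytosolic ribosomal protein mRNAs.

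In input, each of the 9 genes was lower in both *aramis* RNAi libraries than it was in either UAS-*tkv* library, an order that 39.5% of all genes tested shared. The change passed the test for 3 of them: *hdm* fell 6.31-fold, *nenya* 3.46-fold and *rec* 2.87-fold. Over all genes tested, 18.9% were called in this comparison and 8.73% were called lower. The median log2 difference of the 9 genes was -1.52, beside -0.04 for all genes. Input of *bam* RNAi and UAS-*tkv* differed for 0 of the 9 genes in edgeR, and 0 of them had an unadjusted p under 0.05, as did 5.8% of all genes. DESeq2 also called 0. Only 0.236% of all genes were called there, and adjusted p was 1.0 for each of the 9.

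**Figure D1:**
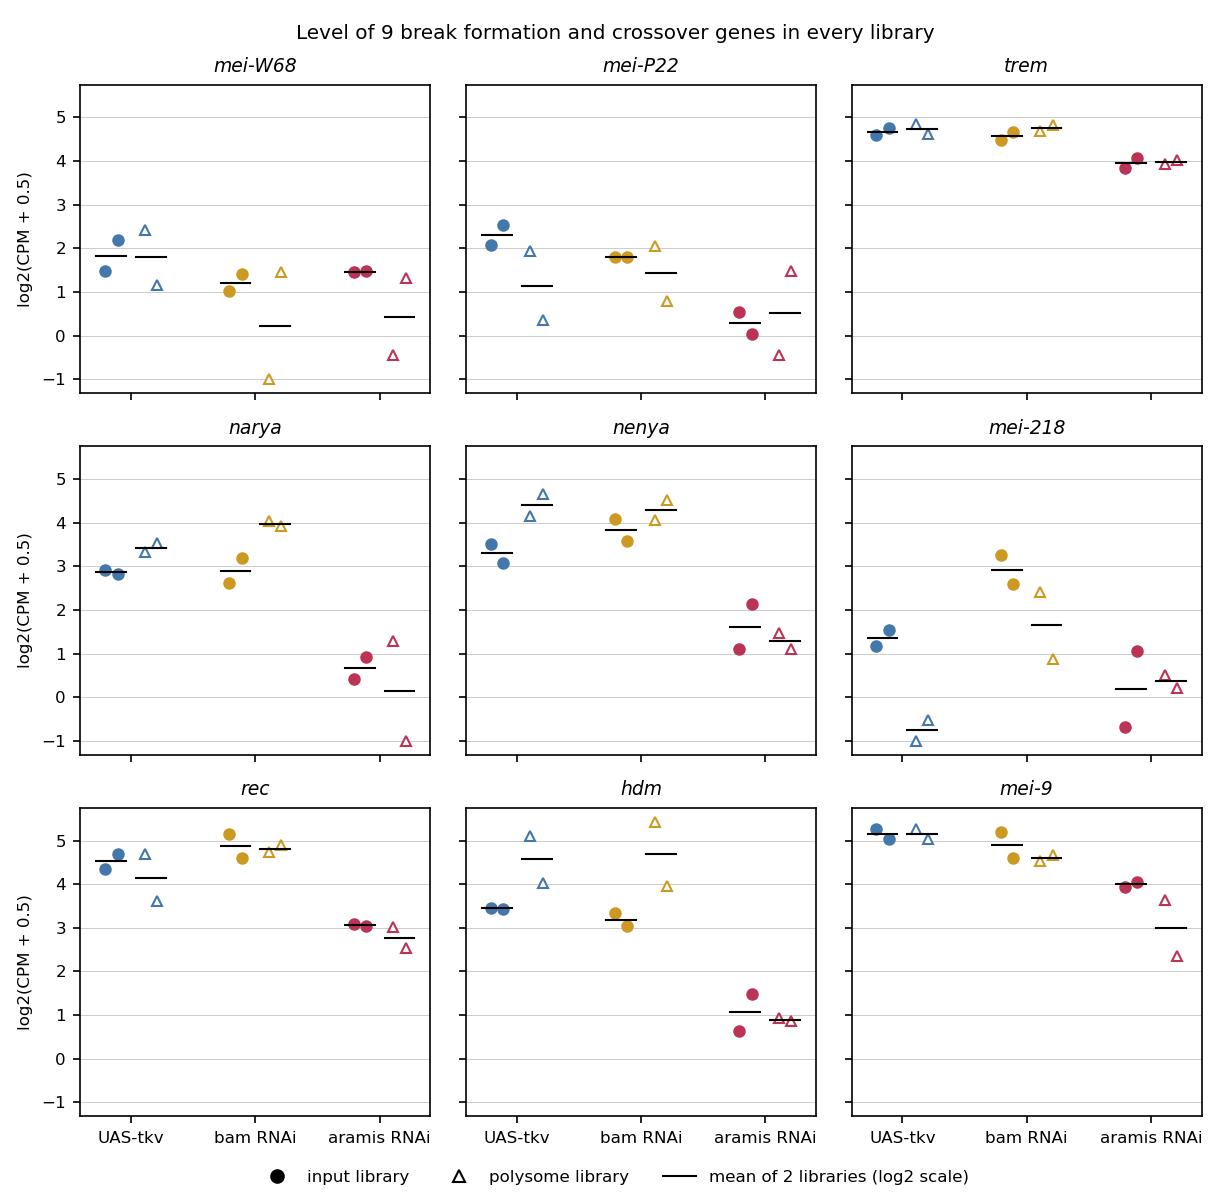
Level of each measured gene in every library, as log2(CPM + 0.5) on the vertical axis and genotype on the horizontal axis; filled circles are input libraries, open triangles polysome libraries, and black lines the mean of 2 libraries. For *rec*, *nenya*, *hdm*, *mei-9*, *trem* and *narya*, both *aramis* RNAi points lie under every control point of the same fraction.

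Break formation was represented by *mei-W68*, *mei-P22* and *trem*. *mei-W68* (FBgn0002716, dm6 chromosome 2R, 19456170 to 19459523) gave 22 and 25 input counts from UAS-*tkv*, 24 and 27 from *bam* RNAi and 19 and 13 from *aramis* RNAi. Scaled to library size these were 2.29 and 4.04 CPM, 1.52 and 2.16 CPM, and 2.24 and 2.28 CPM. The *aramis* RNAi libraries thus lay just under the lower UAS-*tkv* library and above both *bam* RNAi libraries, and neither difference passed the test (log2 -0.48 ± 1.39, adjusted p = 0.837, and 0.30 ± 1.39, adjusted p = 0.919). Its polysome libraries were at 4.84 and 1.75 CPM for UAS-*tkv*, 0 and 2.24 CPM for *bam* RNAi and 0.23 and 1.98 CPM for *aramis* RNAi, so the groups overlapped. Exons of *mei-W68* share 806 of 2300 bases with *par-1* on the same strand, and how reads from shared bases were counted was not stated.

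*mei-P22* (FBgn0016036, 3L, 7244388 to 7245383) encodes the partner that Mei-W68 needs to cut. Its input level was 3.74 and 5.33 CPM for UAS-*tkv*, 2.98 and 2.96 CPM for *bam* RNAi and 0.94 and 0.53 CPM for *aramis* RNAi. Both *aramis* RNAi libraries were below all 4 control libraries, on 8 and 3 counts, but the differences did not pass the edgeR test: -2.58 ± 1.28 against UAS-*tkv* (adjusted p = 0.187) and -1.98 ± 1.26 against *bam* RNAi (adjusted p = 0.380). Its polysome libraries overlapped in every pair of genotypes, at 3.31 and 0.78 CPM, 3.67 and 1.23 CPM, and 0.23 and 2.31 CPM in the same order.

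*trem* (FBgn0038767, 3R, 20029560 to 20031309) had counts of 93 to 345 in input and the smallest standard errors of the 9 genes. In input it stood at 23.6 and 26.6 CPM with UAS-*tkv*, 21.9 and 24.7 CPM with *bam* RNAi and 13.8 and 16.3 CPM with *aramis* RNAi. Its polysome levels were close to these, at 28.5 and 24.1 CPM, 25.5 and 27.8 CPM, and 14.8 and 15.8 CPM. In both fractions the *aramis* RNAi libraries lay under all control libraries. The log2 differences ran from -0.80 to -0.63, and adjusted p was 0.140 and 0.278 in input and 0.0880 and 0.117 in polysomes, against UAS-*tkv* and *bam* RNAi in turn (edgeR). DESeq2 called the polysome difference against *bam* RNAi (-0.88, adjusted p = 0.0489), and a fit of the compared libraries alone called the input differences from UAS-*tkv* of *trem* (adjusted p = 0.0466) and *mei-P22* (adjusted p = 0.0290). Set against UAS-*tkv*, *bam* RNAi differed in *trem* input by -0.11, with a 95% interval of -0.80 to 0.59.

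The RING-finger genes *narya* and *nenya* had some of the lowest levels in *aramis* RNAi relative to the controls. *narya* (FBgn0031018, X, 19475063 to 19476055) read in input 7.06 and 6.62 CPM for UAS-*tkv*, 5.65 and 8.56 CPM for *bam* RNAi and 0.83 and 1.404 CPM for *aramis* RNAi. The 2 *aramis* RNAi libraries held 7 and 8 counts, and the differences of -2.62 ± 0.93 against UAS-*tkv* (adjusted p = 0.0696) and -2.68 ± 0.92 against *bam* RNAi (adjusted p = 0.118) were not called by edgeR. DESeq2 called both, at adjusted p = 0.00421 and 0.00760. In polysomes *narya* stood at 9.52 and 11.1 CPM with UAS-*tkv*, 15.8 and 14.6 CPM with *bam* RNAi and 1.94 and 0 CPM with *aramis* RNAi. It fell 8.77-fold against UAS-*tkv* (log2 -3.13 ± 0.93, adjusted p = 0.0250) and 13.0-fold against *bam* RNAi (-3.70 ± 0.95, adjusted p = 0.0328). The library at 0 counts, *aramis* RNAi polysome replicate 2, was the shallowest, and without it *narya* was not called against UAS-*tkv* (-2.40, adjusted p = 0.0562) or against *bam* RNAi (-2.96, adjusted p = 0.0793).

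*nenya* (FBgn0051053, 3R, 27927357 to 27928174) is a close relative of *narya* with overlapping function. Its input level was 10.9 and 7.91 CPM for UAS-*tkv*, 16.4 and 11.4 CPM for *bam* RNAi and 1.65 and 3.86 CPM for *aramis* RNAi. The *aramis* RNAi libraries lay below every control library and differed from each other by more than the UAS-*tkv* libraries did on a log scale. It fell by 1.79 ± 0.56 on the log2 scale against UAS-*tkv* (adjusted p = 0.0444) and by 2.35 ± 0.56 against *bam* RNAi (adjusted p = 0.0456). Without *aramis* RNAi input replicate 1 the values were -1.28 and -1.84, and without replicate 2 they were -2.50 and -3.06. In polysomes *nenya* read 17.3 and 24.9 CPM with UAS-*tkv*, 16.3 and 22.3 CPM with *bam* RNAi and 2.25 and 1.65 CPM with *aramis* RNAi. Here *aramis* RNAi was far below both controls, with a fall of 10.4-fold against UAS-*tkv* (-3.38 ± 0.59, adjusted p = 0.00233) and of 9.59-fold against *bam* RNAi (-3.26 ± 0.59, adjusted p = 0.0126).

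The mei-MCM genes differed from each other. *mei-218* (FBgn0002709, X, 17135985 to 17142990) was the only one of the 9 genes whose input level lay above UAS-*tkv* in both *bam* RNAi libraries by more than 3-fold on average, with input levels of 1.77 and 2.42 CPM for UAS-*tkv*, 9.07 and 5.52 CPM for *bam* RNAi and 0.12 and 1.58 CPM for *aramis* RNAi. The fitted difference of *bam* RNAi against UAS-*tkv* was 1.80 ± 1.27 (adjusted p = 1.0), which did not pass the test. Against *bam* RNAi, *aramis* RNAi stood at -3.13 ± 1.37 (adjusted p = 0.203). In UAS-*tkv* polysomes *mei-218* had 0 and 1 counts (0 and 0.19 CPM), beside 21 and 25 for *bam* RNAi (4.82 and 1.33 CPM) and 12 and 2 for *aramis* RNAi (0.93 and 0.66 CPM). The ratio of summed counts per library size was 34.9 for *bam* RNAi to UAS-*tkv*, with a counting interval of 5.96 to 1409, and 15.4 for *aramis* RNAi to UAS-*tkv*, with an interval of 2.35 to 653. Neither was called by edgeR (adjusted p = 0.216 and 0.147), while DESeq2 gave an adjusted p of 0.0274 for *bam* RNAi against UAS-*tkv*. Exons of *mei-218* share 5005 of 6310 bases with *mei-217* on the same strand, which is the whole exon length of *mei-217*. *mei-217*, the third mei-MCM gene, had 0 counts in all 12 libraries, and how reads on shared exons were counted was not stated, so the level of *mei-218* is uncertain.

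*rec* (FBgn0003227, 3R, 15823019 to 15832632) encodes the fly MCM8 protein. Its input libraries were at 19.7 and 25.5 CPM for UAS-*tkv*, 35.2 and 23.9 CPM for *bam* RNAi and 8.03 and 7.72 CPM for *aramis* RNAi. The *aramis* RNAi libraries were nearly equal and below every control library. *rec* fell by 1.52 ± 0.45 on the log2 scale against UAS-*tkv* (adjusted p = 0.0364) and by 1.91 ± 0.45 against *bam* RNAi (adjusted p = 0.0439). In polysomes it stood at 25.4 and 11.7 CPM, 26.2 and 29.1 CPM, and 7.61 and 5.28 CPM in UAS-*tkv*, *bam* RNAi and *aramis* RNAi. The polysome changes were -1.51 ± 0.46 (adjusted p = 0.0275) and -2.07 ± 0.46 (adjusted p = 0.0228). Without UAS-*tkv* polysome replicate 1 the first was -0.85 (adjusted p = 0.199). Exons of *rec* share 1100 of 4131 bases with *alpha-Man-IIb* on the opposite strand, and the strand setting of the counting was not stated.

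Among the genes of crossover resolution, *hdm* (FBgn0029977, X, 7918517 to 7920131) had the largest called changes of the 9. Hdm, a single-stranded DNA binding protein, joins the Mei-9 endonuclease. In input *hdm* stood at 10.5 and 10.3 CPM with UAS-*tkv*, 9.58 and 7.68 CPM with *bam* RNAi and 1.06 and 2.28 CPM with *aramis* RNAi. It fell by 2.66 ± 0.66 against UAS-*tkv* (adjusted p = 0.0173), and the difference of -2.39 ± 0.65 against *bam* RNAi was not called by edgeR (adjusted p = 0.0643) but was by DESeq2 (adjusted p = 0.0103), with no filter on low counts (0.0101) and with the compared libraries alone (0.0278). The value against UAS-*tkv* was -2.18 without *aramis* RNAi input replicate 1 and -3.28 without replicate 2. In polysomes *hdm* read 33.9 and 15.9 CPM for UAS-*tkv*, 42.7 and 15.0 CPM for *bam* RNAi and 1.398 and 1.32 CPM for *aramis* RNAi. The control replicates spread widely while those of *aramis* RNAi were nearly equal, and the falls were 18.1-fold against UAS-*tkv* (-4.18 ± 0.70, adjusted p = 0.00194) and 20.8-fold against *bam* RNAi (-4.38 ± 0.71, adjusted p = 0.00917). The first was -3.56 without UAS-*tkv* polysome replicate 1, and the second -3.45 and -4.98 without *bam* RNAi polysome replicate 1 and 2.

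*mei-9* (FBgn0002707, X, 4314230 to 4318801), the endonuclease gene, stood in input at 38.2 and 32.5 CPM with UAS-*tkv*, 36.0 and 23.7 CPM with *bam* RNAi and 14.8 and 16.1 CPM with *aramis* RNAi. Both *aramis* RNAi libraries lay under every control library, but the input differences of -1.19 ± 0.42 (adjusted p = 0.0711) and -0.95 ± 0.42 (adjusted p = 0.208) were not called by edgeR. The first was called by DESeq2 (adjusted p = 0.0253) and with the compared libraries alone (0.00810). In polysomes it stood at 37.7 and 32.3 CPM, 22.5 and 25.1 CPM, and 11.9 and 4.62 CPM. It fell there by 2.03 ± 0.44 against UAS-*tkv* (adjusted p = 0.00582) and by 1.47 ± 0.43 against *bam* RNAi (adjusted p = 0.0470). The log2 differences were -2.97 and -2.41 without *aramis* RNAi polysome replicate 1. They shrank to -1.558 and -1.001 without replicate 2, the shallowest library, which held 14 counts of *mei-9*. Exons of *mei-9* share 382 of 3606 bases with *lncRNA:CR44957* on the same strand.

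Against *bam* RNAi, the other control, 2 of the 9 genes were called lower in *aramis* RNAi input (*rec* and *nenya*), where 3.39% of all genes were called and 2.44% were called lower. In this comparison 8 of the 9 genes did not overlap and were lower, as did 34.8% of all genes, and *mei-W68* did not overlap and was higher, as did 33.1% of all genes. The same *aramis* RNAi libraries enter both comparisons, so they are not independent. Set against every control library at once, *aramis* RNAi input was lower for 8 of the 9 genes (all but *mei-W68*) and for 29.8% of all genes. Called genes in input depended on single libraries: against UAS-*tkv*, *rec* and *nenya* lost the call without any 1 of the 4 libraries (adjusted p from 0.0714 to 0.321), and *hdm* kept it only without UAS-*tkv* input replicate 2 (adjusted p from 0.0457 to 0.168). Against *bam* RNAi both calls ended without any 1 of the 4 libraries, at adjusted p from 0.0622 to 0.382. With no filter on low counts *nenya* was not called against UAS-*tkv* (adjusted p = 0.0658).

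In polysomes 5 of the 9 genes (*narya*, *nenya*, *rec*, *hdm* and *mei-9*) were called lower with *aramis* RNAi than with UAS-*tkv*, where 30.8% of all genes were called and 13.6% were called lower. The same 5 genes were called lower against *bam* RNAi, where 12.7% of all genes were called and 6.87% were called lower. These 5 and *trem* lay below every control library, as did 19.4% of all genes. The median log2 difference of the 9 genes was -1.74 against UAS-*tkv* (all genes 0.02) and -1.86 against *bam* RNAi (all genes 0.07). *hdm*, *nenya* and *mei-9* kept the call against UAS-*tkv* without each library in turn, at adjusted p from 0.00312 to 0.0356, whereas *rec* lost it without UAS-*tkv* polysome replicate 1, *aramis* RNAi polysome replicate 1 or *aramis* RNAi polysome replicate 2. Against *bam* RNAi, where the controls were the 2 discordant libraries, 0 of the 5 calls held in every such fit. Without *bam* RNAi polysome replicate 1, *nenya* (-3.46, adjusted p = 0.0231) and *hdm* (-3.45, adjusted p = 0.0286) remained called, and without replicate 2 there were 4 calls. Without either *aramis* RNAi polysome library there were 0. Fitted on the compared libraries alone, *narya* (adjusted p = 0.134) and *rec* (adjusted p = 0.128) lost the call against UAS-*tkv*, and *hdm* alone kept it against *bam* RNAi. Summed germline markers in polysomes stood at 653 to 678 CPM with UAS-*tkv*, 489 to 810 CPM with *bam* RNAi and 254 to 295 CPM with *aramis* RNAi, and their part in these falls was not tested. *bam* RNAi and UAS-*tkv* polysomes differed for 0 of the 9 genes in edgeR, with 1 unadjusted p under 0.05 (*mei-218*) beside 14.2% of all genes, and 1 call in DESeq2. Of all genes 0.626% were called there.

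**Figure D2:**
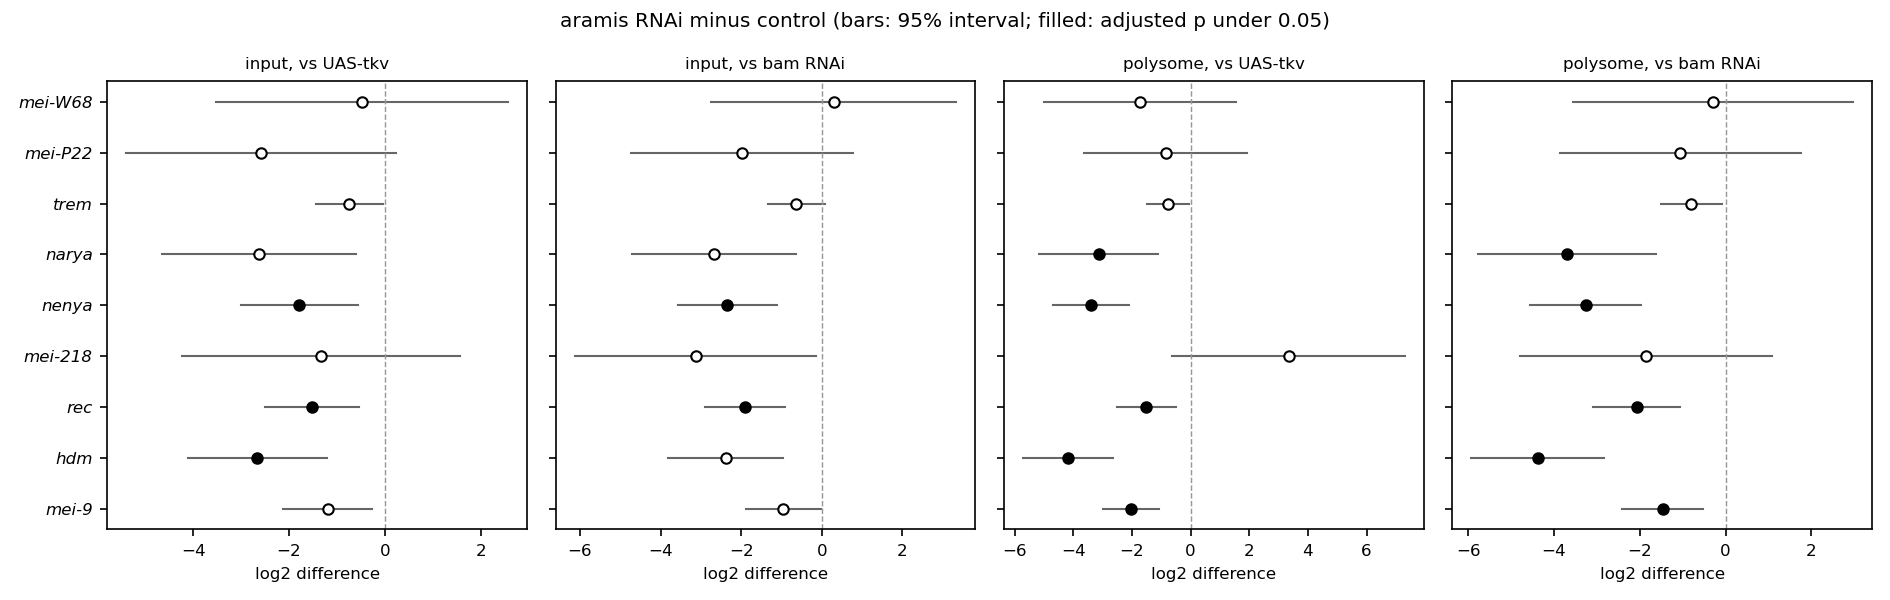
Log2 difference of *aramis* RNAi minus each control for the 9 measured genes (horizontal axis), in input and in polysomes; points are fitted values, bars 95% intervals, and filled points have an edgeR adjusted p under 0.05. Filled points number 3, 2, 5 and 5 from left to right, and all of them lie below 0.

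TE (translational efficiency) is the ratio of polysome to input level, and was described first within each genotype. *hdm* had a polysome level above its input level in both controls, with a log2 ratio of 1.26 ± 0.60 (SE) for UAS-*tkv* and 1.73 ± 0.60 for *bam* RNAi, and it stood at -0.26 ± 0.70 with *aramis* RNAi. The interval of the *bam* RNAi value, 0.42 to 3.04, lay above 0, whereas that of UAS-*tkv* ran from -0.04 to 2.57. *nenya* gave 1.16 ± 0.53, 0.48 ± 0.52 and -0.44 ± 0.58 in the same order, and its interval for UAS-*tkv*, 0.0009 to 2.32, lay just above 0. *trem* was near 0 in every genotype, at 0.07, 0.19 and 0.02, each ± 0.32 or 0.33. *rec* stood at -0.28, -0.09 and -0.26 and *mei-9* at -0.01, -0.33 and -0.85. The lowest value was that of *mei-218* in UAS-*tkv*, -4.68 ± 1.76, which rests on 1 polysome count. Over all genes the medians were -0.01, -0.15 and 0.

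TE differed between genotypes for 0 of the 9 genes in each of the 3 comparisons. For *aramis* RNAi against UAS-*tkv* 0.0103% of all genes were called (1 gene), for *aramis* RNAi against *bam* RNAi 0 genes, and for *bam* RNAi against UAS-*tkv* 0.0103%. Adjusted p ran from 0.652 to 1.0 over the 27 tests, and the unadjusted p was under 0.05 for 1 of the 9 genes in the first comparison (7.51% of all genes), 0 in the second (3.15%) and 0 in the third (2.22%). DESeq2 called 0 of the 9 in each. For *hdm* the TE difference was -1.52 ± 0.92 against UAS-*tkv* (95% interval -3.53 to 0.48) and -1.99 ± 0.92 against *bam* RNAi (-3.99 to 0.02), with adjusted p of 0.663 and 0.928. For *nenya* it was -1.60 ± 0.78 (-3.31 to 0.12) and -0.92 ± 0.78 (-2.62 to 0.79). *trem* had the narrowest interval of the 9, -1.05 to 0.95 against UAS-*tkv*, which held changes of up to about 2-fold either way. Such an interval is not adjusted for the number of genes tested, so larger changes could also go uncalled. *c(3)G*, from the synapsis and cohesion genes below, stood at 1.81 ± 0.36 in this comparison and was not called (adjusted p = 0.324 in edgeR). At the thresholds of the study, over 2-fold and unadjusted p under 0.05, *mei-218* alone passed in *aramis* RNAi against UAS-*tkv*, where 7.07% of all genes did. Its value was 4.67 ± 2.26 (0.0494 unadjusted in the edgeR fit), with a 95% interval of -0.26 to 9.61. That value rests on 0 and 1 counts in UAS-*tkv* polysomes. The median SE of a TE difference of *aramis* RNAi against UAS-*tkv* was 0.92 for the 9 genes and 0.61 for all genes.

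**Figure D3:**
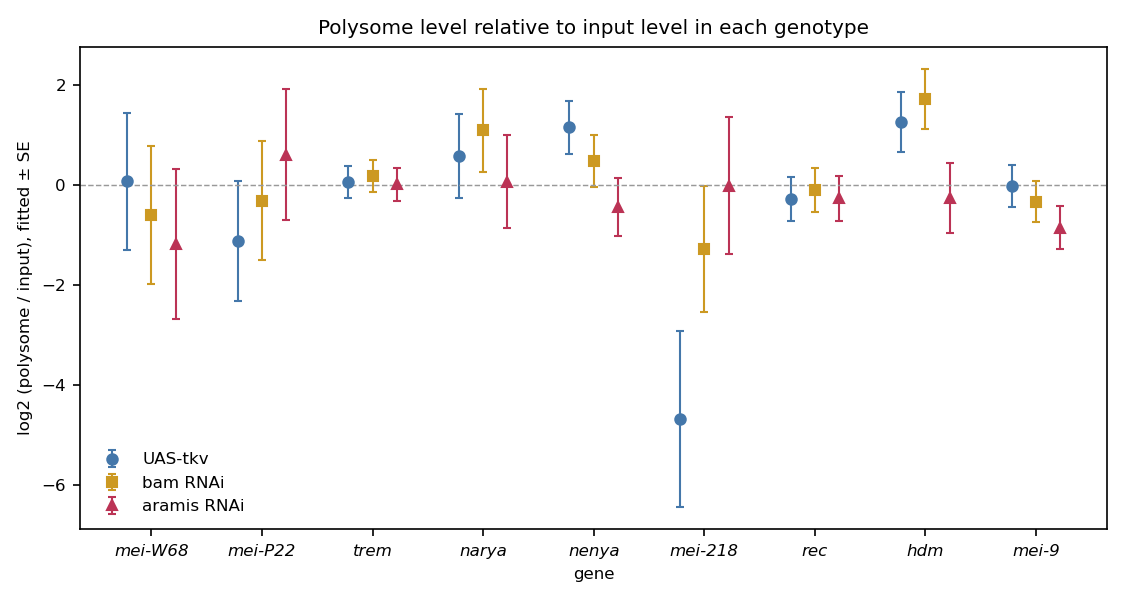
Fitted log2 ratio of polysome to input level for each gene (horizontal axis) in UAS-*tkv* (circles), *bam* RNAi (squares) and *aramis* RNAi (triangles); bars are ± SE, from 2 libraries per fraction. *hdm* stands at 1.26, 1.73 and -0.26, and *mei-218* in UAS-*tkv* at -4.68, while 0 of the 9 genes had a called difference between genotypes.

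Levels were compared between genes per exon length, as TPM (counts divided by exon length and scaled to the library). In UAS-*tkv* input *trem* was highest at 30.6 ± 3.6 TPM (SD, n = 2), followed by *nenya* at 21.3, *mei-9* at 18.2, *hdm* at 13.2, *narya* at 12.8, *rec* at 10.2, *mei-P22* at 8.48, *mei-W68* at 2.57 and *mei-218* at 0.618 TPM. Replicate ranges of *nenya* and *mei-9* overlapped, as did those of *rec* and *mei-P22*, so these neighbours cannot be ordered. *bam* RNAi input gave *nenya* 30.8, *trem* 26.6, *mei-9* 15.1, *rec* 13.0, *narya* 12.1, *hdm* 10.6, *mei-P22* 5.26, *mei-218* 2.12 and *mei-W68* 1.37 TPM. There the ranges of *nenya* and *trem*, of the neighbours from *mei-9* to *hdm*, and of *mei-218* and *mei-W68* overlapped. In *aramis* RNAi input *trem* led at 13.1 TPM, *mei-9* (5.66) and *nenya* (4.48) overlapped, *rec* stood at 2.52 TPM, *hdm* (1.52), *narya* (1.49) and *mei-W68* (1.30) overlapped, *mei-P22* (0.971) overlapped *hdm* and *narya*, and *mei-218* (0.180) was below the rest. In UAS-*tkv* polysomes *nenya* stood at 34.0 ± 4.5 TPM, *hdm* at 23.5 ± 14.5 TPM and *trem* at 23.2 ± 5.5 TPM. The range of *hdm* there overlapped those of *nenya*, *trem*, *narya* and *mei-9*, so its place was not resolved. Ranges of *nenya* (34.8 ± 23.8), *trem* (24.8 ± 13.7) and *hdm* (22.9 ± 4.9) overlapped in *bam* RNAi polysomes, so their order was not resolved. In *aramis* RNAi polysomes *trem*, at 14.3 ± 1.2 TPM, was above the ranges of the other genes.

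The nearest patterns over the 6 group means were sought among genes of similar level, by Euclidean distance of centred log2 CPM, as a description over 6 groups. The pattern closest to any of the 9 was that of CG15812 to *trem* (distance 0.149), followed by CG5274 to *trem* (0.180) and *nolo* to *rec* (0.229). CG43062 was the nearest gene to *nenya* (0.519) and the second nearest to *narya* (0.646, after CG1503 at 0.558). *Cyt-c1L* (0.624) and CG32187 (0.634) were nearest to *hdm*, and CG12702 (0.406) and CG6962 (0.417) to *mei-9*. The second nearest to *rec* was CG7352 (0.408). *Zaf1* (0.372) and CG15701 (0.512) were nearest to *mei-P22*, CG43322 (0.380) and CG12926 (0.526) to *mei-W68*, and CG15172 (0.551) was the second nearest to *nenya*. *mei-218* had the most distant ones, CR44906 (0.925) and CG30427 (0.987). Median distances to the candidate genes ran from 1.39 for *trem* to 3.87 for *hdm*.

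Other genes of meiotic recombination were read from lists. Of 10 genes whose products act with or against the crossover proteins, 8 were tested. Their median was -1.52 in *aramis* RNAi input against UAS-*tkv*. There 8.73% of all genes were called lower, and 5 of these 8 were called lower and 0 higher. They include *mms4* (20.9 and 15.0 CPM for UAS-*tkv*, 3.42 and 3.86 CPM for *aramis* RNAi, log2 -2.30 ± 0.44, adjusted p = 0.00618) and *mus81* (20.2 and 13.4 CPM against 4.37 and 3.33 CPM, -2.12 ± 0.67, adjusted p = 0.0470), which encode the subunits of a structure-selective endonuclease. Against *bam* RNAi, where 2.44% of all genes were called lower, 1 was called lower, *Mcm5* (131 and 87.3 CPM in *bam* RNAi, 30.9 and 33.7 CPM in *aramis* RNAi, -1.76 ± 0.28, adjusted p = 0.00831). *Mcm5* is a replicative helicase gene in which alleles affecting meiotic crossovers are known. Of 16 break repair genes, all tested, 6 were called lower against UAS-*tkv* (8.73% of all genes) and 1 against *bam* RNAi (2.44%). Their medians were -1.31 and -1.01. The fall was largest for *tos*, an exonuclease gene (45.4 and 22.1 CPM against 4.37 and 6.49 CPM, -2.64 ± 0.53, adjusted p = 0.00744). The checkpoint kinase gene *lok* fell against both controls (-2.12 ± 0.25, adjusted p = 0.00128, and -1.92 ± 0.25, adjusted p = 0.00395).

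Of 10 synapsis and cohesion genes 8 were tested, with medians in *aramis* RNAi input of -2.55 against UAS-*tkv* and -2.98 against *bam* RNAi. Of these 8, 6 were called lower against UAS-*tkv* (8.73% of all genes) and 4 against *bam* RNAi (2.44%). *cona*, a central region component of the synaptonemal complex, went from 104 and 106 CPM in UAS-*tkv* to 10.03 and 12.6 CPM in *aramis* RNAi (-3.21 ± 0.30, adjusted p = 0.000480). *ord*, which encodes a cohesion protein, fell 9.12-fold in the same comparison (-3.19 ± 0.44, adjusted p = 0.00196), and *sunn*, a cohesin-related gene, fell 9.66-fold against *bam* RNAi (-3.27 ± 0.41, adjusted p = 0.00338). In polysomes against UAS-*tkv*, 6 of 8 crossover partners and 6 of 16 break repair genes were called lower. So were 4 of 8 synapsis and cohesion genes, and 0 genes of the 3 lists were called higher. Of all genes, 13.6% were called lower there. TE was called for 0 genes of the 3 lists in each comparison. Germline markers measured in the same libraries had a median input difference of -2.50 against UAS-*tkv* and -2.74 against *bam* RNAi. In each, 6 of 7 were called lower. The falls seen among the 9 genes thus stand beside a fall of the germline markers whose part in them was not tested.

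**Figure D4:**
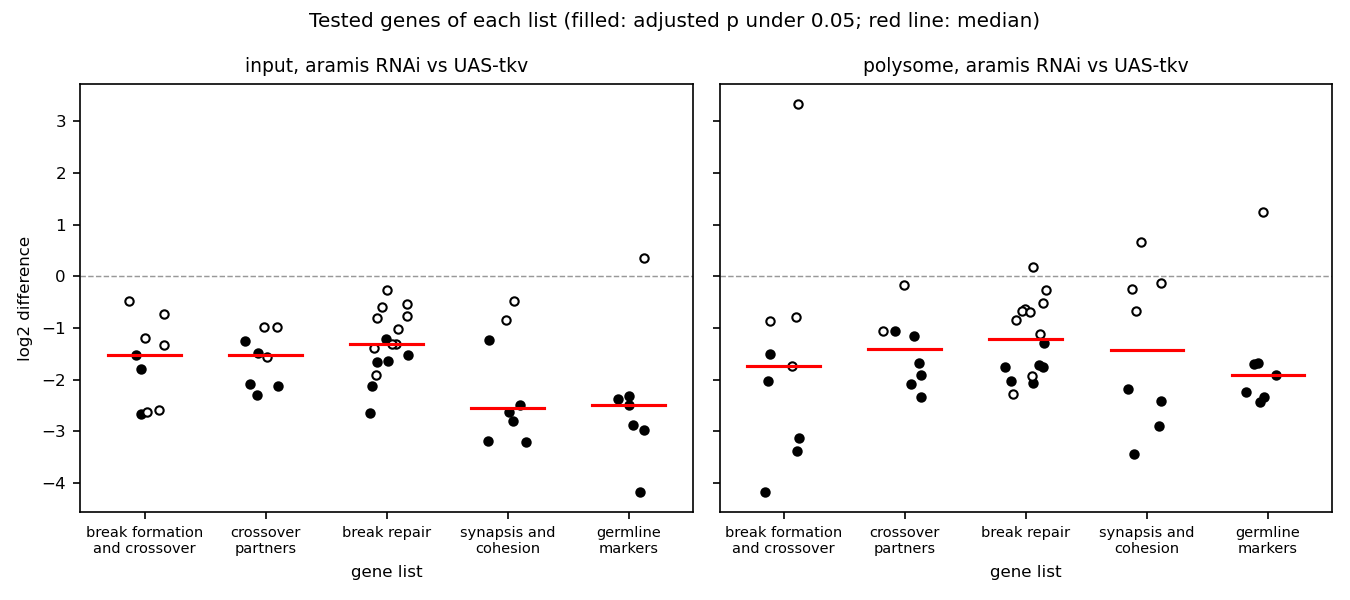
Log2 difference of *aramis* RNAi minus UAS-*tkv* (vertical axis) for each tested gene of 5 lists, in input (left) and in polysomes (right); filled points have an edgeR adjusted p under 0.05 and red lines are list medians. The input medians are -1.52 for the 9 break formation and crossover genes, -1.52 for crossover partners, -1.31 for break repair, -2.55 for synapsis and cohesion and -2.50 for germline markers.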

How the data were processed

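Libraries were directional and poly(A)-selected. Per the labels, the authors used HISAT2 2.1.0 on dm6 and featureCounts 1.4.6, and the deposited values are raw counts per gene. The strand setting, the annotation release and how reads on several genes were treated are not given in the sources used here. The Ensembl annotation in dm6 coordinates supplied names, positions and exon lengths for 16647 identifiers. The other 376 were kept under their identifiers. Totals ran from 3131667 to 15039925. Intervals on counts cover counting error only.

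Counts were fitted in R 4.3.3 with edgeR 4.0.16 (TMM, filterByExpr by group, quasi-likelihood, 6 group means over 12 libraries, 6 residual degrees of freedom). This kept 9745 genes and removed 7278. TE was the interaction of fraction and genotype. P-values were adjusted over all genes tested (Benjamini-Hochberg), and a gene was called at an adjusted p under 0.05. The fit was tested on simulated counts. Alternatives were RLE factors, no filter, DESeq2 1.42.0, fits of only the compared libraries, replicate blocks, single libraries left out, and TE from TPM.

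The genes and lists were chosen with earlier results of these data known. Named genes are the list itself, up to 2 called genes per direction of each related list in input and TE, and the 2 genes nearest in pattern to each measured gene among those within 4-fold of its mean CPM.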

Additional observations from a re-analysis of the deposited data

How the results depend on the processing

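Replicates numbered 2 per group and the 9 genes had few counts, with a median SE of 0.66 in input against UAS-*tkv*, so small differences were not detectable. With single libraries left out, the number of the 9 genes called ranged from 0 to 1 (input, *aramis* RNAi against UAS-*tkv*), 0 to 0 (input, against *bam* RNAi), 3 to 5 (polysomes, against UAS-*tkv*) and 0 to 4 (polysomes, against *bam* RNAi), and was 0 in the other 5 comparisons. The number of all genes called ranged from 253 to 1082 (main 1840), 1 to 261 (330), 1097 to 2612 (2998) and 11 to 3002 (1237) in the same order, from 0 to 24 in input (23) and 14 to 238 in polysomes (61) for *bam* RNAi against UAS-*tkv*, and for TE at 0 (1), 0 to 610 (0) and 0 to 3 (1). The values of 3002 and 610 were reached without *bam* RNAi polysome replicate 2.

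RLE factors changed 0 calls of the 9 genes. In input against UAS-*tkv*, DESeq2 called 5 of the 9 (2515 of all genes) and a fit of the compared libraries alone called 7 (4116 of all genes). In input against *bam* RNAi, no filter, DESeq2 and the compared libraries alone called 4, 4 and 4 of the 9 and 1151, 1231 and 1888 of all genes. In polysomes the compared libraries alone called 3 of the 9 against UAS-*tkv* and 1 against *bam* RNAi (70 of all genes), where no filter gave 2170 and DESeq2 2350 of all genes. For *bam* RNAi against UAS-*tkv*, no filter and DESeq2 called 263 and 111 genes in input, and 706 and 521 in polysomes with 1 and 1 of the 9 (*mei-218*); the compared libraries alone called 146 in polysomes. For TE against UAS-*tkv* in *aramis* RNAi these were 39 (no filter), 19 (DESeq2) and 0 (compared libraries), against *bam* RNAi 44 with no filter, and in *bam* RNAi against UAS-*tkv* 18, 3 and 0. The cause of these shifts was not tested.

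Same-numbered input and polysome libraries deviated together in UAS-*tkv* (r = 0.54 across genes) and *aramis* RNAi (0.39) but not in *bam* RNAi (-0.00288), so the numbers were not taken as pairs. With the replicate block, 37 genes were called in input of *bam* RNAi against UAS-*tkv*, and with a block by lysate the TE calls became 0 and 0 against UAS-*tkv*. The block changed 0 calls of the 9 genes.

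Signs changed with a single library left out in 21 of 81 gene results, 0 of which were called. For *bam* RNAi against UAS-*tkv* input, the ranges were -0.21 to 0.0014 (*trem*), -0.28 to 0.30 (*narya*) and -0.60 to 0.028 (*mei-9*). In polysomes they were -0.76 to 1.59 (*mei-P22*), -0.095 to 0.14 (*trem*), -0.37 to 0.16 (*nenya*, 0.0040 with no filter) and -0.73 to 0.85 (*hdm*), and for *aramis* RNAi -3.10 to 0.46 (*mei-P22* against UAS-*tkv*) and -2.32 to 6.05 (*mei-W68* against *bam* RNAi). For TE of *aramis* RNAi against UAS-*tkv* they were -0.51 to 3.11 (*mei-P22*), -0.16 to 0.12 (*trem*), -6.88 to 0.23 (*narya*) and -0.43 to 0.74 (*rec*), against *bam* RNAi -2.62 to 5.82 (*mei-W68*), -1.31 to 1.94 (*mei-P22*) and -0.46 to 0.083 (*rec*), and for *bam* RNAi against UAS-*tkv* -7.09 to 0.28 (*mei-W68*), -0.16 to 2.20 (*mei-P22*), -0.26 to 0.86 (*rec*), -0.46 to 1.12 (*hdm*) and -0.58 to 0.036 (*mei-9*). The ends of 6.05, 5.82 and -7.09 for *mei-W68* and of -6.88 for *narya* come from fits in which the library left in a group had 0 counts, so they are not bounded and give no size.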

Other observations

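TE was also computed per replicate as log2((polysome TPM + 1)/(input TPM + 1)), with no test. Each value pairs the input and polysome libraries of the same number. In *bam* RNAi such libraries did not deviate together (r = -0.00288 across genes), so its values per replicate rest on a pairing that was not shown. For *hdm* the replicates were at 1.31 and -0.01 with UAS-*tkv*, 0.91 and 1.24 with *bam* RNAi and 0.36 and -0.52 with *aramis* RNAi, so the UAS-*tkv* replicates spanned the values of *aramis* RNAi replicate 1. In *bam* RNAi the replicates took opposite signs for *mei-W68* (-1.24 and 0.26), *trem* (-0.93 and 0.53), *nenya* (-1.16 and 1.31), *rec* (-1.47 and 0.61) and *mei-9* (-1.71 and 0.42). Each of these 5 genes was low in replicate 1, the library with 30.2% of its counts in ribosomal protein mRNAs; the part of that share was not tested. For *mei-218* the difference of *bam* RNAi against UAS-*tkv* was -0.30 on this scale, against 3.40 in the fit, where the pseudocount of 1 exceeds the TPM in UAS-*tkv* input of 0.618.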
